A study of Mus musculus with 9 samples.

Results

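The genes described here belong to the tumour necrosis factor (TNF) superfamily and its receptors in mouse peritoneal macrophages: 7 ligand genes (Tnf, Ltb, Tnfsf9, Tnfsf10, Tnfsf12, Tnfsf13b and Tnfsf14), the receptor genes Tnfrsf1a and Tnfrsf1b, and Adam17, the gene of the protease that releases TNF from the cell surface. They were chosen by name, matched to the gene identifiers of the expression table through the GENCODE M21 annotation, and make up 10 of the 54059 genes in that table. All 10 were found once, with a value in each of the 9 libraries.

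RNA was sequenced from 3 groups of 3 libraries, all from C57BL/6 mice given as 8 weeks old. The wild-type group and the M-Shp2-/- group (genotype SHP2lyz2-/-, in which Lyz2-driven Cre deletes the floxed gene Ptpn11, which encodes SHP2, in myeloid cells) were stimulated in culture with imiquimod (IMQ, a TLR7 agonist; 10 ug/ml for 4 h). The SHP099 group came from wild-type mice and received SHP099, an allosteric inhibitor of SHP2, at 10 uM for 2 h before the same stimulation. The treatments are known from the paper of the study and not from the sample labels. All mice had received 1 ml of starch broth in the peritoneal cavity, and adherent cells were collected after 3 days. No unstimulated library was analysed here, so every level is one reached under IMQ. The Cre acts only where Lyz2 is active, so cells that lack Lyz2 keep the gene. Expression is given as FPKM, fragments per kilobase of transcript scaled by the mapped reads of the library, and the depth recovered from the smallest steps in these values was 39842268 to 50980194 reads per library. The labels do not say whether replicates came from separate animals, so each p value measures the spread between these samples.

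TNF and its relatives are made as trimers on the cell surface and act through receptors of the matching family, either from the surface or after a protease has released them. TNF itself is an early product of macrophages that meet a microbial signal, and signals through TNFR1 (Tnfrsf1a), which most cells carry and which can lead to inflammation or cell death, and through TNFR2 (Tnfrsf1b), which is mainly found on immune cells. ADAM17 cuts TNF and both receptors from the membrane.

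The deleted gene was read first as a check of the labels. Ptpn11 stood at 45.8, 44.0 and 40.0 FPKM in the wild-type libraries, at 18.6, 17.8 and 18.9 FPKM in the M-Shp2-/- libraries and at 43.0, 42.1 and 39.6 FPKM in the SHP099 libraries. Every M-Shp2-/- library lay below every other library, at a ratio of means of 0.425 to wild type, while the wild-type and SHP099 values overlapped. Its log2 fold change was -1.19 (SE 0.10) in M-Shp2-/- against wild type, with a limma adjusted p of 0.0168, and -1.13 (SE 0.08) against SHP099, with a limma adjusted p of 0.0109. With 1 library left out the first of these adjusted p values ran from 0.042 to 0.196, above 0.05 without wild-type replicate 1 or 2 or M-Shp2-/- replicate 1 or 2, and the log2 fold change from -1.24 to -1.15. The second reached 0.115 without M-Shp2-/- replicate 1 and stayed at most 0.05 only without M-Shp2-/- replicate 3.

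Markers of macrophages were present throughout. Of 8 macrophage markers, 7 or 8 stood at 1 FPKM or more in each library, led by Lyz2, and their sum was 10420, 13421 and 11189 FPKM in wild type, 7595, 7468 and 8412 FPKM in M-Shp2-/- and 11778, 13005 and 13736 FPKM with SHP099. The M-Shp2-/- sums were the lowest, and Lyz2, the gene whose promoter drives the Cre, stood at 4863, 4743 and 5407 FPKM there against 7440 to 10715 FPKM in the other 6 libraries. Lyz2 carries most of that sum and largely sets its order, and the sum without Lyz2 was not compared. Limma called 0 of the 8 markers in M-Shp2-/- against wild type, beside 0.0873% of all genes. Of the 8 markers, 6 had a log2 fold change below 0 there, with a median of -0.44. Among them Cd14 averaged 1296 FPKM in wild type and 838 FPKM in M-Shp2-/-, and Mertk 8.94 and 3.87 FPKM. Above 0 were Cd68, at 1377 and 1523 FPKM, and Csf1r. Csf1r measured 58.2, 67.8 and 111 FPKM in wild type, 87.4, 71.8 and 176 FPKM in M-Shp2-/- and 181, 211 and 206 FPKM with SHP099. It was called higher in SHP099 against wild type, with a log2 fold change of 1.38 (0.85 to 1.90, limma adjusted p = 0.0222). That call was lost without SHP099 replicate 1, 2 or 3 (adjusted p up to 0.116), with no filter (0.0979) and with median-of-ratios scaling (0.0575). In that comparison 3 of the 8 markers had a log2 fold change above 0 and 5 below, with a median of -0.23, and Cd68 was lower without overlap, at 1250 FPKM on average. In M-Shp2-/- against SHP099, 2 of the 8 were above 0 and 6 below, with a median of -0.30. There limma called 0 (0.0699% of all genes) and voom 1 (0.123%). In 3 markers M-Shp2-/- was lower without overlap, beside 17.7% of all genes without overlap in either direction. Natural killer cell markers summed to at most 1.29 FPKM and dendritic cell markers to at most 1.77 FPKM. The dendritic cell sums with SHP099, at 0.784, 0.725 and 0.619 FPKM, lay below the 0.862 to 1.77 FPKM of the other groups without overlap. The 6 neutrophil markers summed to 38.9 to 101 FPKM, nearly all from S100a8, with S100a9 at no more than 1.11 FPKM. The 5 mast cell markers, led by Kit, summed to 5.62, 3.998 and 4.75 FPKM in wild type, 2.48, 3.17 and 0.995 FPKM in M-Shp2-/- and 0.654, 0.495 and 0.970 FPKM with SHP099. These mast cell sums were low and separated the 3 groups without overlap. The part of mast cells and dendritic cells in the results for the members was not tested.

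**Figure D1:**
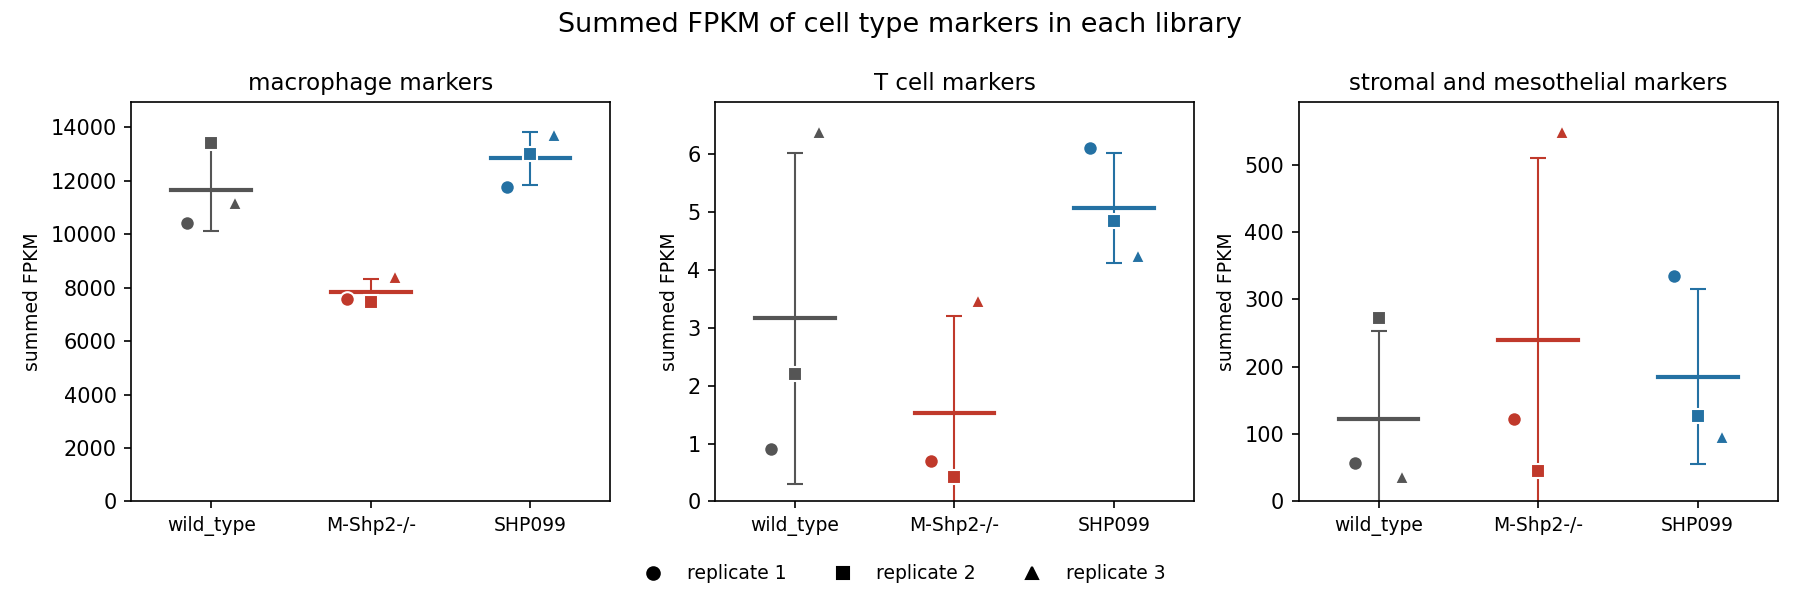
Summed FPKM of 3 fixed lists of cell type markers in each library, with replicates as symbols, the group mean as a line and 1 SD as a bar (bars are clipped at 0). The M-Shp2-/- libraries have the lowest macrophage sums, at 7468 to 8412 FPKM, but these sums consist mostly of Lyz2, the gene whose promoter drives the Cre. The T cell sums are below 1 FPKM in wild-type replicate 1 and M-Shp2-/- replicates 1 and 2.

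A pair of libraries stood apart within their groups. On the log2 scale M-Shp2-/- replicate 3 correlated with its group at 0.967 and 0.954, against 0.992 between the other M-Shp2-/- libraries. The 7 stromal and mesothelial markers, led by Col1a1, summed to 56.5, 272 and 36.3 FPKM in wild type, 123, 45.9 and 549 FPKM in M-Shp2-/- and 334, 127 and 95.0 FPKM with SHP099. Their highest sum was in M-Shp2-/- replicate 3 and their lowest in wild-type replicate 3, and high sums were found in every group. Wild-type replicate 3 correlated with its group at 0.976 and 0.974, against 0.984 between the other wild-type libraries, and was the highest library for Tnf and Tnfsf9. Counts of members and list genes called that change without either library are given beside the results.

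The members spanned more than 4 orders of magnitude, and FPKM, a value per length, allows their levels to be set in order. The length that matches these values is the mean over the annotated transcripts of a gene. It was 844 bases for Tnfrsf1a and 2621 bases for Adam17, and levels compared between genes depend on it. Tnf came highest, with a mean of 3762 FPKM over the 9 libraries, then Tnfrsf1b with 1808 FPKM, and the lowest Tnf value of 2375 FPKM lay above the highest Tnfrsf1b value of 1950 FPKM. Adam17 (189 FPKM), Tnfrsf1a (171 FPKM) and Tnfsf9 (150 FPKM) followed with overlapping ranges. Tnfsf12 had a mean of 18.8 FPKM and Ltb of 3.37 FPKM, with no overlap between them. Tnfsf14 (0.457 FPKM), Tnfsf10 (0.221 FPKM) and Tnfsf13b (0.170 FPKM) closed the order, overlapped one another and stayed below the mean of 1 FPKM needed for testing. The spread over libraries differed too: the coefficient of variation was 4.60% for Tnfrsf1b and 5.43% for Tnfrsf1a, 15.1% for Adam17, 32.4% for Tnf, 51.5% for Tnfsf9 and 73.8% for Ltb.

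Tested were 7 of the 10 members among 11450 genes, and limma called none of them at an adjusted p of at most 0.05 in any comparison. In M-Shp2-/- against wild type, 0 of 7 members were called by limma, against 0.0873% of all genes tested (0% higher and 0.0873% lower), with 1 member, Adam17, at an unadjusted p under 0.05 (10.5% of all genes) and 0 by voom. In SHP099 against wild type, 0 of 7 were called by limma against 6.96% of all genes (4.55% higher and 2.41% lower), with 2 members, Ltb and Adam17, at an unadjusted p under 0.05 (26.7% of all genes) and 0 by voom. Among all genes called, more were lower than higher under some alternatives, such as median-of-ratios scaling, and without wild-type replicate 1 or any SHP099 library. In M-Shp2-/- against SHP099, 0 of 7 were called by limma against 0.0699% of all genes (0.0262% higher and 0.0437% lower), with 2 members, Ltb and Tnfsf9, at an unadjusted p under 0.05 (12.6% of all genes) and 0 by voom. Groups did not overlap for 2 members in M-Shp2-/- against wild type (19.1% of all genes), for 3 in SHP099 against wild type (34.6%) and for 1 in M-Shp2-/- against SHP099 (17.7%). An exact two-sided permutation test of 3 against 3 cannot go below 0.1 and was not used.

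The median log2 fold change of all genes tested was 0.15 in M-Shp2-/- against wild type and 0.13 in SHP099 against wild type, and fell to 0.01 and to -0.000175 with median-of-ratios scaling, so fold changes of members against wild type are also given relative to that median. Both comparisons use the same wild-type libraries. Because these are bulk samples, fewer cells that express a gene and less RNA of it per cell cannot be told apart.

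**Figure D2:**
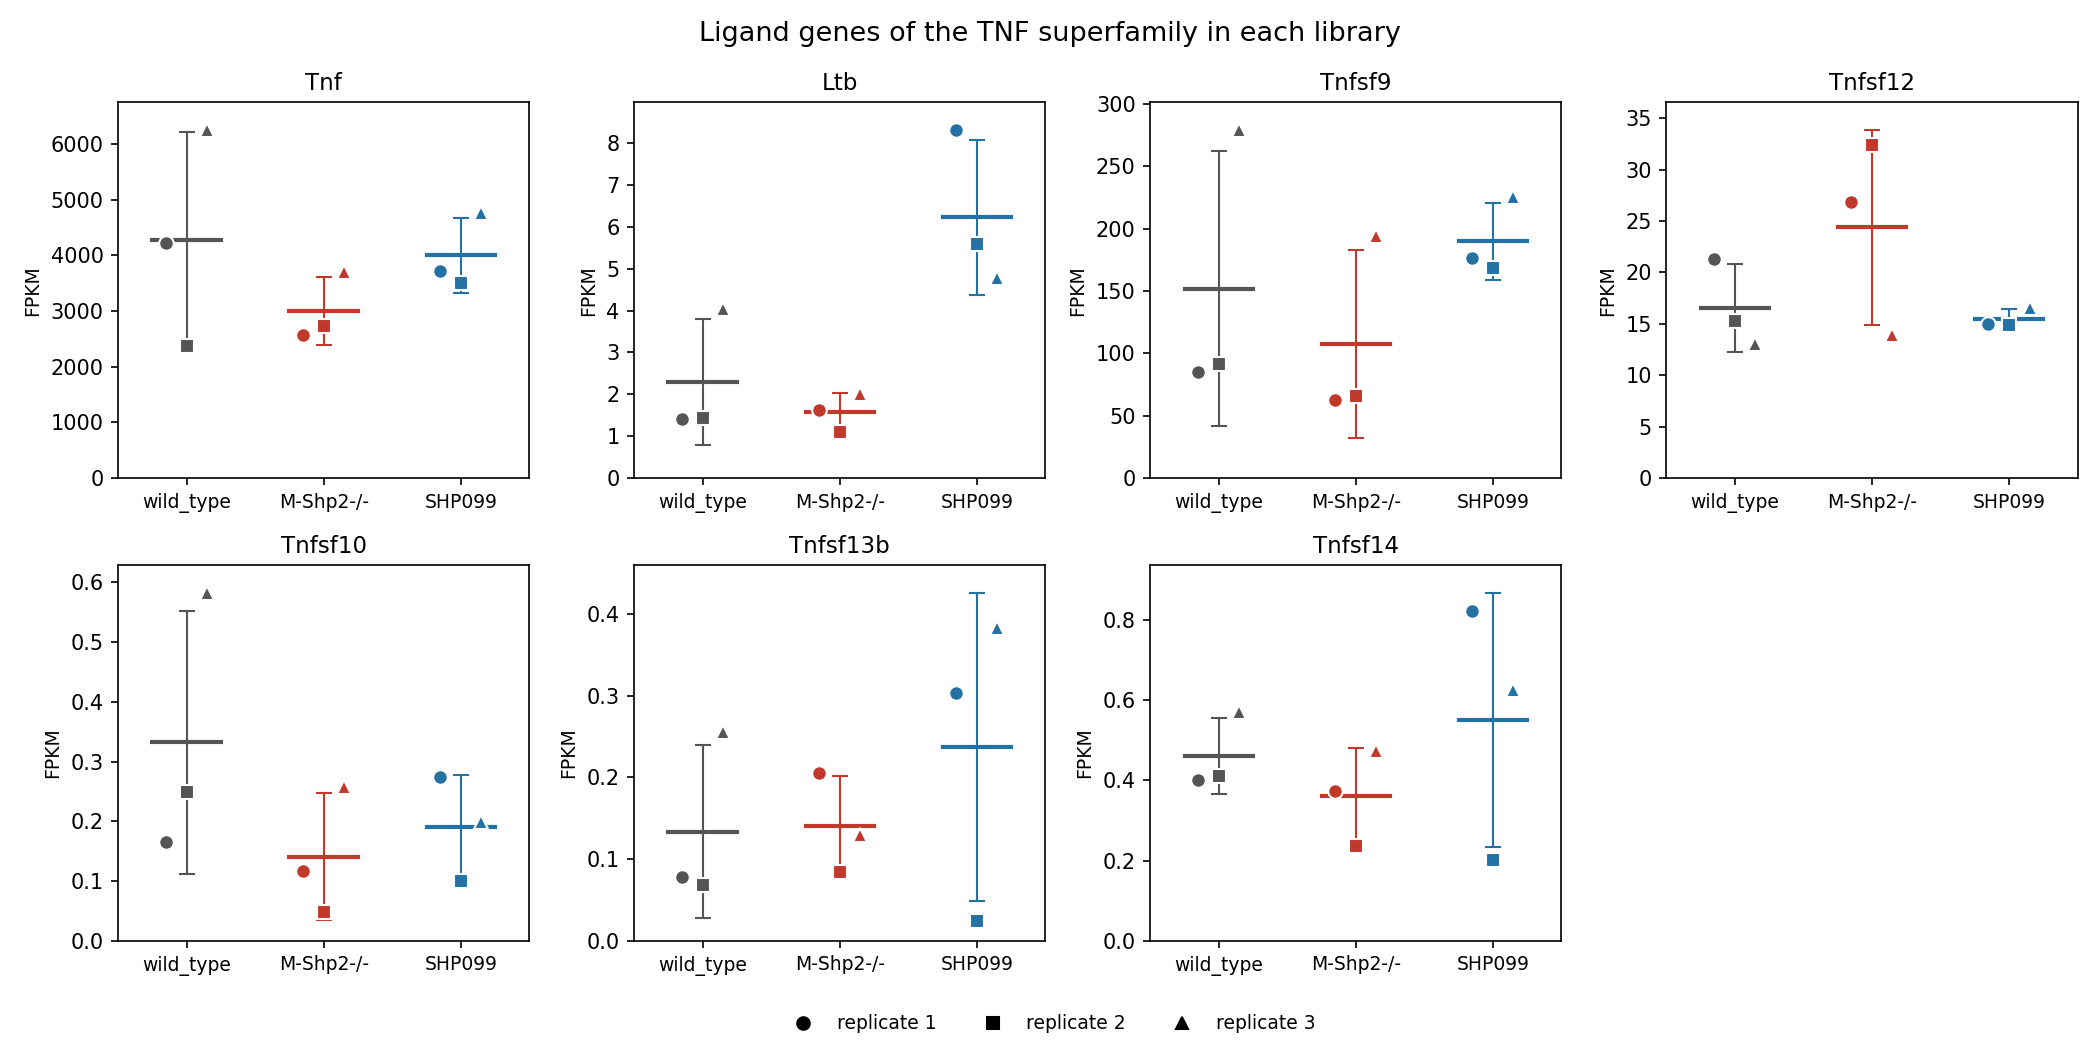
FPKM of the 7 ligand genes in each library, with replicates as symbols, the group mean as a line and 1 SD as a bar (bars are clipped at 0). Ltb is the ligand whose SHP099 libraries, at 4.77 to 8.30 FPKM, all lie above the others, while Tnfsf10, Tnfsf13b and Tnfsf14 stay under 1 FPKM.

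Tnf (ENSMUSG00000024401; chr17:35199381-35202007, minus strand, GRCm38) encodes the founding ligand of the family. It measured 4216, 2375 and 6247 FPKM in wild type, 2573, 2733 and 3709 FPKM in M-Shp2-/- and 3724, 3513 and 4768 FPKM with SHP099. Wild type held both the lowest and the highest library, and all groups overlapped. Tnf ranked between place 7 and place 25 among all genes of a library and took 0.348% to 0.906% of the summed FPKM, on 172260 to 411943 recovered reads. Wild-type replicate 3 carried the highest share.

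The Tnf mean was 4280 ± 1937 FPKM (SD, n = 3) in wild type, 3005 ± 615 FPKM in M-Shp2-/- and 4002 ± 672 FPKM with SHP099. In M-Shp2-/- against wild type the log2 fold change was -0.42 (95% interval -1.26 to 0.42, limma adjusted p = 0.587), or -0.57 relative to the median of all genes. It was -0.79 without wild-type replicate 2 and -0.09 without wild-type replicate 3. In SHP099 against wild type the ratio of means was 0.935, with an interval of -0.79 to 0.78 on the log2 scale (limma adjusted p = 0.999), a value of -0.13 relative to the median of all genes, and a sign that turned with the library left out, from -0.37 to 0.33. In M-Shp2-/- against SHP099 the log2 fold change was -0.42 (-0.85 to 0.02, limma adjusted p = 0.403), and without M-Shp2-/- replicate 3 it was -0.58 with a limma adjusted p of 0.0364, where 2277 genes were called in place of 8. Across all libraries left out in turn that adjusted p ran from 0.0364 to 0.805.

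Ltb (ENSMUSG00000024399; chr17:35194439-35196320, plus strand, GRCm38) encodes lymphotoxin beta, which anchors lymphotoxin trimers to the membrane and binds the lymphotoxin beta receptor. It measured 1.42, 1.44 and 4.03 FPKM in wild type, 1.62, 1.11 and 2.003 FPKM in M-Shp2-/- and 8.30, 5.60 and 4.77 FPKM with SHP099. All SHP099 libraries lay above all others, and wild type and M-Shp2-/- overlapped, with wild-type replicate 3 the highest outside SHP099. These values rest on 53 to 423 recovered reads per library, and 3 reads would give at most 0.0649 FPKM.

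In SHP099 against wild type the Ltb ratio of means was 2.71, and the log2 fold change was 1.19 (0.43 to 1.96, limma adjusted p = 0.071), or 1.07 relative to the median of all genes. Ltb was higher in 3 of 3 SHP099 libraries than in any wild-type library, yet was not called. Without wild-type replicate 3 the log2 fold change was 1.54 with a limma adjusted p of 0.0153, and the adjusted p ran from 0.0153 to 0.227 over the libraries left out and from 0.0546 to 0.226 over the other alternatives. In M-Shp2-/- against SHP099 the ratio was 0.253 and the log2 fold change -1.47 (-2.01 to -0.94, limma adjusted p = 0.125), with an adjusted p of 0.00765 without M-Shp2-/- replicate 3 and up to 0.555 without another library. For M-Shp2-/- against wild type it was -0.28 (-1.06 to 0.50, limma adjusted p = 0.676), or -0.43 relative to the median of all genes, and 0.07 without wild-type replicate 3. The pseudocount of 1 FPKM shrinks these fold changes, since Ltb lies close to it.

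T cell markers are set beside Ltb here. The 6 markers summed to 0.908, 2.20 and 6.39 FPKM in wild type, 0.694, 0.417 and 3.46 FPKM in M-Shp2-/- and 6.11, 4.86 and 4.24 FPKM with SHP099, with Cd3g the most abundant over the libraries. Cd8a was at 0 in wild-type replicate 1 and Cd3e at 0 in M-Shp2-/- replicate 1, and no T cell marker reached the mean of 1 FPKM needed for testing. In each group the library with the highest T cell sum also had the highest Ltb value: wild-type replicate 3, M-Shp2-/- replicate 3 and SHP099 replicate 1. Across groups, wild-type replicate 3 had the highest T cell sum, at 6.39 FPKM, while its Ltb value of 4.03 FPKM lay below every SHP099 library. The part of T cells in the Ltb values was not tested.

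Ltb and Tnf are neighbours in the major histocompatibility complex, with 3060 bases between their ends, and Lta, the gene of lymphotoxin alpha, lies 1157 bases beyond Tnf. Lta measured 3.57, 1.77 and 2.35 FPKM in wild type, 2.39, 1.67 and 0.841 FPKM in M-Shp2-/- and 0.890, 0.671 and 1.29 FPKM with SHP099. In SHP099 against wild type its log2 fold change was -0.85 (-1.39 to -0.31, limma adjusted p = 0.0694), so the log2 fold changes of Ltb and Lta, on either side of Tnf, had opposite signs there, and neither was called. Tnfsf9 and Tnfsf14 form another pair on the same chromosome, 81734 bases apart, and 4 of the 10 members lie on chromosome 17.

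The sequences upstream of Tnf and Ltb are shown because these adjoining genes differ so widely in level. They come from the RefSeq promoter table (GRCm38.p6), which had an entry for 8 of the 10 members; Tnfsf9 and Tnfsf12 had none. Each is printed 5′ to 3′ on the strand of the gene, as far as the M21 gene model begins: chr17:35202008-35202257 for Tnf and chr17:35194257-35194438 for Ltb. Capitals mark a TATA box in Tnf and a match to the NF-kB consensus in Ltb.
Tnf: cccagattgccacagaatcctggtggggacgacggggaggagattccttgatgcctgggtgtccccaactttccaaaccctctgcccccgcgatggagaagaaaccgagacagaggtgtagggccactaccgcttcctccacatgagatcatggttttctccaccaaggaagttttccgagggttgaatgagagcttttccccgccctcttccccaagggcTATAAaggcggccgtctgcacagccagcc
Ltb: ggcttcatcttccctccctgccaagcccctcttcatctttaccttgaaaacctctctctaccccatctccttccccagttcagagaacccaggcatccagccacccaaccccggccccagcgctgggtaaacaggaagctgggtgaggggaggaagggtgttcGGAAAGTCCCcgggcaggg
The 250 bases before the start of every entry were searched on both strands for the NF-kB consensus, for the AP-1 motif TGANTCA and for the TATA box TATAA, which do not overlap here. Positions are counted from the start of the entry. For Ltb that start lies inside the M21 gene model, so the 182 bases printed end before it. Of 9 entries of members (Tnfsf13b has 2), 1 held the NF-kB consensus (Ltb, on the opposite strand, from base -87), 2 held AP-1 (Tnfsf14 and 1 of the entries of Tnfsf13b) and 1 held TATAA (Tnf, from base -29). Over all 32851 entries the shares were 7.25%, 6.75% and 22.8%. A match describes the letters only, and the absence of a match says only that these letters are not in this window.

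Tnfsf9 (ENSMUSG00000035678) encodes 4-1BB ligand, which costimulates T cells through 4-1BB. It measured 84.9, 91.7 and 279 FPKM in wild type, 62.3, 65.9 and 195 FPKM in M-Shp2-/- and 176, 169 and 225 FPKM with SHP099. Replicate 3 of wild type and of M-Shp2-/- lay far above the other libraries of their groups, and those other libraries all lay below every SHP099 library. In SHP099 against wild type the log2 fold change was 0.54 (-0.47 to 1.55, limma adjusted p = 0.473), or 0.41 relative to the median of all genes. Without wild-type replicate 3 it was 1.09 with a limma adjusted p of 0.0122, within a range of 0.0122 to 0.761 over the libraries left out.

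For M-Shp2-/- against SHP099 the Tnfsf9 log2 fold change was -1.01 (-2.02 to -0.00, limma adjusted p = 0.397), and -1.54 with a limma adjusted p of 0.002 without M-Shp2-/- replicate 3. For M-Shp2-/- against wild type it was -0.48 (-1.90 to 0.95, limma adjusted p = 0.697), or -0.62 relative to the median of all genes, -1.01 without M-Shp2-/- replicate 3 and 0.07 without wild-type replicate 3. With both libraries left out, an alternative chosen after seeing the data, it was -0.46 (limma adjusted p = 0.116). Of its exon bases 14.9% overlap Gm11110 on the other strand, at a mean of 1.69 FPKM, and the counting strand is not stated.

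Tnfsf12 (ENSMUSG00000097328) encodes TWEAK, the ligand of Fn14. It measured 21.3, 15.3 and 13.05 FPKM in wild type, 26.8, 32.4 and 13.96 FPKM in M-Shp2-/- and 15.0, 14.9 and 16.6 FPKM with SHP099. The first pair of M-Shp2-/- libraries was above all others and M-Shp2-/- replicate 3 was among the lowest, so the groups overlapped. For M-Shp2-/- against wild type the log2 fold change was 0.48 (-0.29 to 1.25, limma adjusted p = 0.539), or 0.33 relative to the median of all genes, and 0.82 without M-Shp2-/- replicate 3 (limma adjusted p = 0.225). Against SHP099 it was 0.54 (-0.13 to 1.22, limma adjusted p = 0.46), and 0.89 with a limma adjusted p of 0.00437 without that library. For SHP099 against wild type it was -0.06 (-0.47 to 0.34, limma adjusted p = 0.849), or -0.19 relative to the median of all genes, and 0.12 without wild-type replicate 1. The readthrough gene Tnfsfm13 shares 48.3% of the Tnfsf12 exon bases on the same strand, at a mean of 2.74 FPKM, so some reads could belong to either gene.

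The remaining ligands were barely expressed. Tnfsf10 encodes TRAIL, a ligand that can trigger cell death, and measured 0.0487 to 0.582 FPKM on 6 to 74 reads. Tnfsf13b encodes BAFF, a survival factor of B cells, and measured 0.0248 to 0.383 FPKM on 2 to 34 reads. Its lowest library, SHP099 replicate 2, had 2 reads and lay under the level of 3 reads, 0.0372 FPKM, that was set as the floor for counting error. Tnfsf14 encodes LIGHT, a ligand of HVEM and of the lymphotoxin beta receptor, and measured 0.203 to 0.821 FPKM on 15 to 67 reads. In each of these genes the 3 groups overlapped. With no filter on low FPKM they were fitted too, and the smallest limma adjusted p among them was 0.672, for Tnfsf10 in SHP099 against wild type.

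Over the 9 libraries, the genes whose log2 values were most like those of Tnf were Arhgef3 (Pearson r = 0.976), 4930599N23Rik (0.952) and Irak2 (0.952). For Tnfsf9, looked up after its values were seen, they were Ccrl2 (r = 0.995), Ticam2 (0.976) and Zhx2 (0.974), and for Ltb, likewise, Nr1h2 (0.964), Chaf1b (0.953) and Kdm4b (0.950). Ccrl2 ran from 444 to 1219 FPKM. These correlations pool the 3 groups and describe the same libraries.

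**Figure D3:**
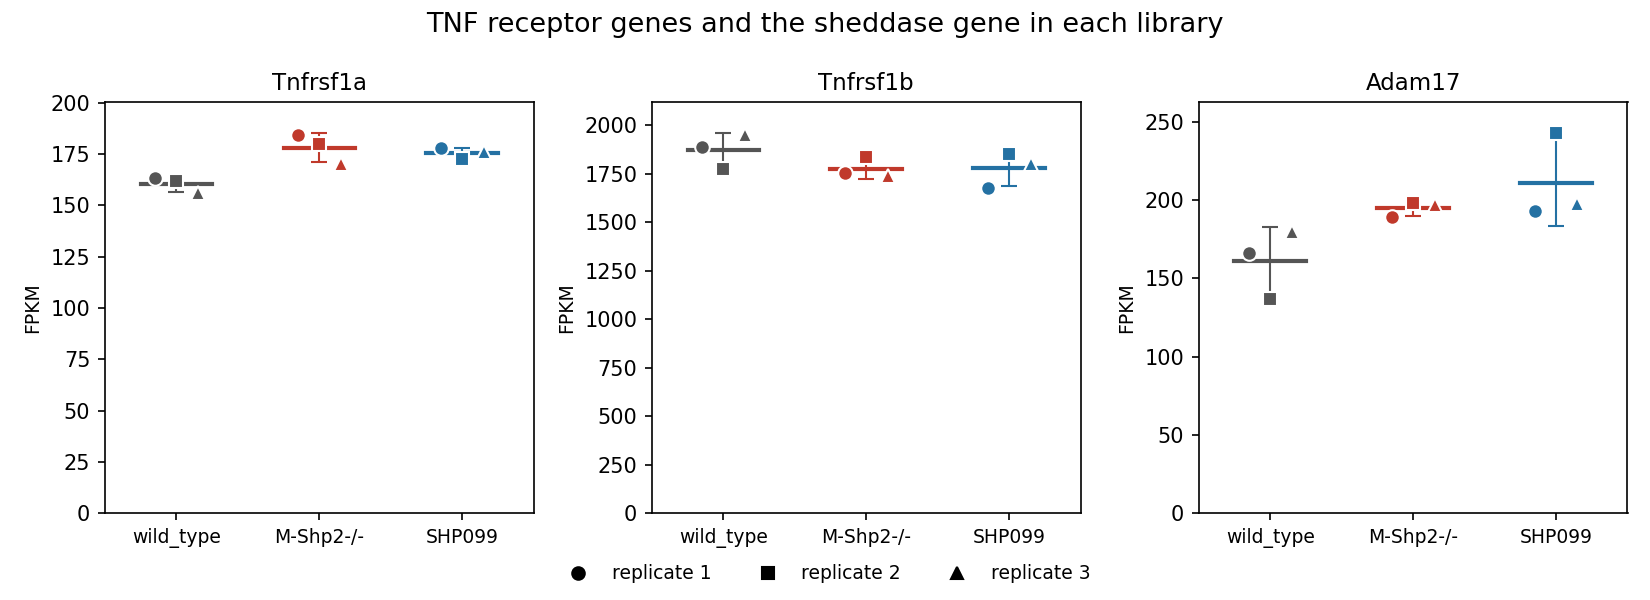
FPKM of Tnfrsf1a, Tnfrsf1b and Adam17 in each library, with replicates as symbols, the group mean as a line and 1 SD as a bar. The wild-type libraries are the lowest for Tnfrsf1a, at 156 to 163 FPKM, and for Adam17, at 137 to 180 FPKM, and overlap with the others for Tnfrsf1b.

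Tnfrsf1a (ENSMUSG00000030341) measured 163, 162 and 156 FPKM in wild type, 184, 180 and 170 FPKM in M-Shp2-/- and 178, 173 and 176 FPKM with SHP099. Every wild-type library lay below every other library, and M-Shp2-/- and SHP099 overlapped. The log2 fold change was 0.15 (-0.04 to 0.34, limma adjusted p = 0.495) in M-Shp2-/- and 0.13 (-0.03 to 0.29, limma adjusted p = 0.27) with SHP099 against wild type, and -0.01 and -0.02 with median-of-ratios scaling, where both directions turn. Relative to the median of all genes the values were 0.0022 and 0.00112. For M-Shp2-/- against SHP099 it was 0.02 (-0.14 to 0.18, limma adjusted p = 0.912), with -0.00422 without M-Shp2-/- replicate 1.

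Tnfrsf1b (ENSMUSG00000028599) measured 1889, 1775 and 1950 FPKM in wild type, 1755, 1835 and 1738 FPKM in M-Shp2-/- and 1677, 1853 and 1802 FPKM with SHP099. All groups overlapped, and it ranked between place 29 and place 33 in every library. The log2 fold change was -0.07 (-0.30 to 0.15, limma adjusted p = 0.706) in M-Shp2-/- and -0.07 (-0.29 to 0.14, limma adjusted p = 0.657) with SHP099 against wild type, or -0.22 and -0.20 relative to the median of all genes, and 0.13 and 0.05 with quantile normalization, where both directions turn. With M-Shp2-/- set against SHP099 the ratio of means was 0.999, with a log2 interval of -0.20 to 0.20 (limma adjusted p = 0.999) and values of 0.000621 at an equal sum of FPKM and 0.08 with quantile normalization. With 1 library left out that log2 fold change ran from -0.04 to 0.03.

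The ratio of Tnfrsf1b to Tnfrsf1a FPKM within a library is not changed by multiplying all values of that library by a factor. It was 11.6, 10.98 and 12.5 in wild type, 9.52, 10.2 and 10.2 in M-Shp2-/- and 9.43, 10.7 and 10.3 with SHP099. Wild type had the highest values without overlap, a difference picked out after the values were seen and not tested.

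Adam17 (ENSMUSG00000052593) measured 166, 137 and 180 FPKM in wild type, 189, 198 and 197 FPKM in M-Shp2-/- and 193, 243 and 197 FPKM with SHP099. Every wild-type library lay below every other library, and the other groups overlapped. The log2 fold change was 0.28 (0.00 to 0.56, limma adjusted p = 0.47) in M-Shp2-/- and 0.39 (0.07 to 0.71, limma adjusted p = 0.121) with SHP099 against wild type, or 0.14 and 0.26 relative to the median of all genes. It was higher in 3 of 3 libraries of each group, and the call was not reached with any library left out, where the adjusted p ran from 0.284 to 0.89 and from 0.0756 to 0.355. With M-Shp2-/- set against SHP099 it was -0.11 (-0.35 to 0.14, limma adjusted p = 0.68). Of the Adam17 exon bases 4.35% overlap Iah1 on the other strand, at a mean of 39.7 FPKM.

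**Figure D4:**
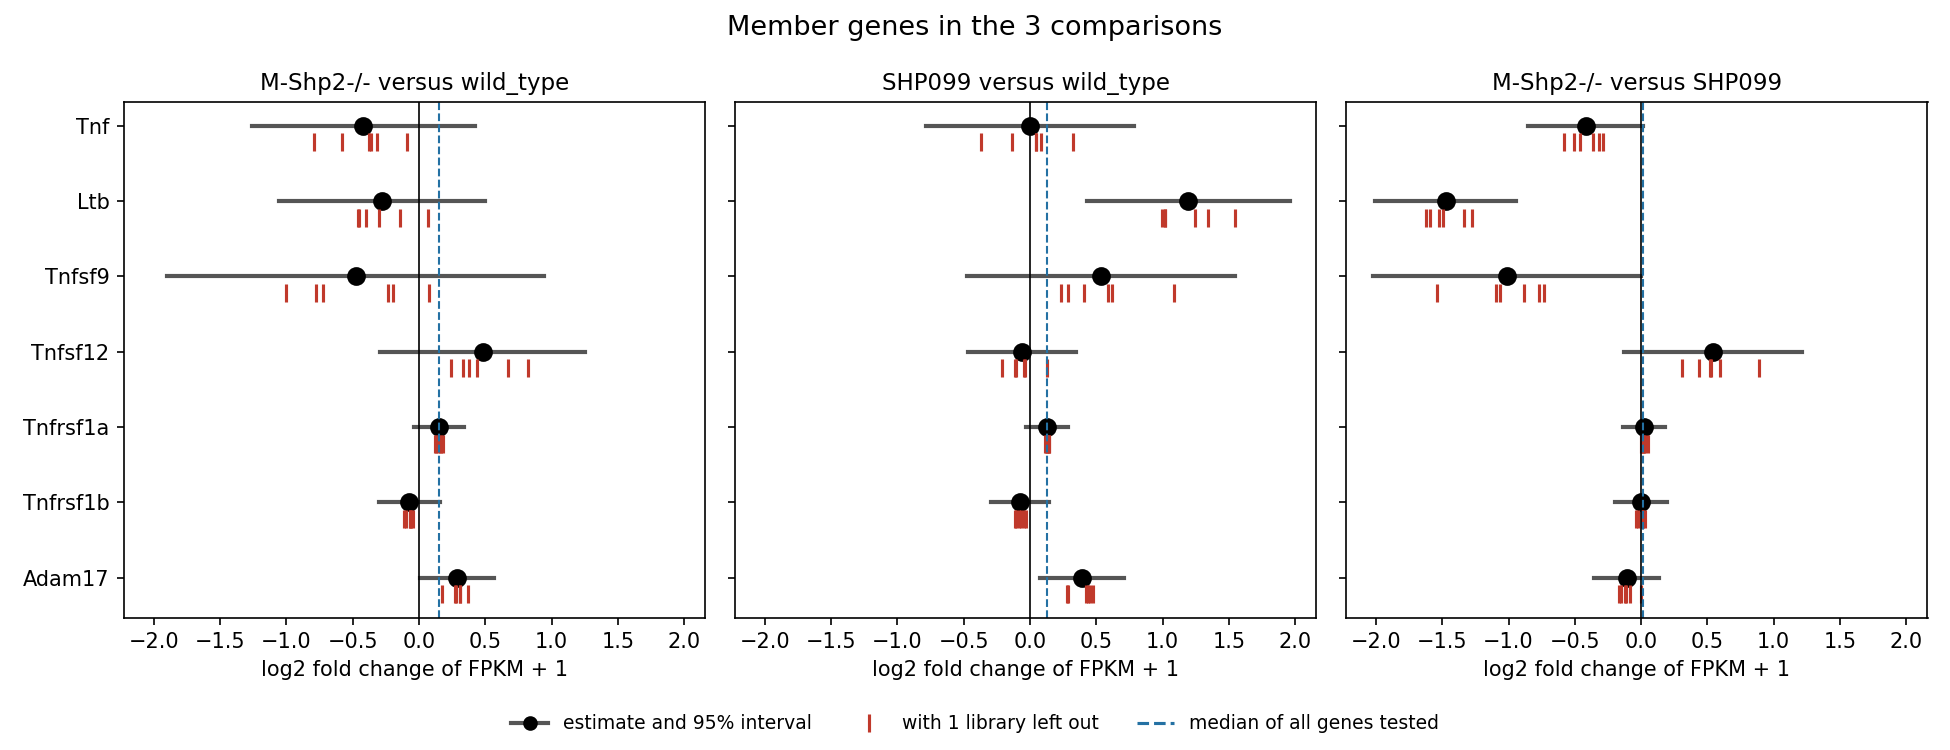
Log2 fold change of FPKM + 1 for the 7 members tested in the 3 comparisons, with the estimate as a dot, the 95% interval as a line, the estimates with 1 library left out as red ticks and the median of all genes tested as a dashed line. Intervals are narrowest for Tnfrsf1a and Tnfrsf1b, and the Ltb estimates stand at 1.19 and -1.47 in the comparisons with SHP099.

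The rest of the family was followed through fixed lists. Of 18 ligand genes 8 were tested, and 0 were called by limma in any comparison. Beside them stood 0.0873% of all genes in M-Shp2-/- against wild type, 6.96% in SHP099 against wild type and 0.0699% in M-Shp2-/- against SHP099. With M-Shp2-/- set against wild type 1 of them, Tnfsf15, had an unadjusted p under 0.05 (10.5% of all genes), in SHP099 against wild type 2 (Ltb and Lta, beside 26.7% of all genes), in M-Shp2-/- against SHP099 3 (Ltb, Tnfsf9 and Tnfsf15, beside 12.6%), and voom called 0. The median log2 fold changes of the ligands were -0.35, -0.04 and -0.17 in that order, beside 0.15, 0.13 and 0.02 over all genes. Without M-Shp2-/- replicate 3 limma called 4 ligands in M-Shp2-/- against SHP099 (19.9% of all genes called there), and without wild-type replicate 3 it called 2 in SHP099 against wild type (11.1% of all genes), all of them members. Tnfsf15, the gene of TL1A and the third ligand by level, measured 18.1, 13.4 and 72.4 FPKM in wild type, 9.08, 8.88 and 10.7 FPKM in M-Shp2-/- and 11.4, 15.0 and 27.1 FPKM with SHP099. All M-Shp2-/- libraries lay below all others, with a log2 fold change of -1.37 (-2.74 to -0.00, limma adjusted p = 0.474) against wild type and -0.65 without wild-type replicate 3. For SHP099 against wild type it was -0.62 (-2.05 to 0.82, limma adjusted p = 0.568), and 0.10 without that library.

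Of 28 receptor genes 18 were tested. For SHP099 against wild type limma called 0 higher and 1 lower, Cd40 (6.96% of all genes called), with 3 at an unadjusted p under 0.05 (26.7% of all genes). The other comparisons had 0 called, with 2 at an unadjusted p under 0.05 in each (10.5% and 12.6% of all genes) and 0 by voom. Without M-Shp2-/- replicate 3, 4 of 18 receptors were called in M-Shp2-/- against SHP099, beside 19.9% of all genes, all higher: Cd40, Relt, Tnfrsf13b and Tnfrsf22. The median log2 fold change of the receptors was 0.06 in M-Shp2-/- and -0.16 with SHP099 against wild type (-0.08 and -0.27 with median-of-ratios scaling, which turns the sign of the former) and 0.25 in M-Shp2-/- against SHP099. Cd40, the receptor through which T cells activate macrophages and B cells, measured 402, 210 and 315 FPKM in wild type, 200, 252 and 98.5 FPKM in M-Shp2-/- and 104, 110 and 158 FPKM with SHP099. It was second only to Tnfrsf1b by mean level in the list and lower in 3 of 3 SHP099 libraries than in any wild-type library. The log2 fold change was -1.29 (-1.89 to -0.69, limma adjusted p = 0.0346), and stayed between -1.54 and -1.07 with 1 library left out, but among these the call was kept only without wild-type replicate 2, and the adjusted p ran from 0.0237 to 0.156. It was also lost with no filter and in a fit of all 9 libraries. With M-Shp2-/- set against wild type it was -0.80 (-1.72 to 0.12, limma adjusted p = 0.479). Other receptors named by the size of their fold changes were low: Tnfrsf9, the gene of 4-1BB, at 0.517 to 2.62 FPKM, Tnfrsf22 at 0.559 to 2.515 FPKM, Tnfrsf26 at 1.81 to 6.52 FPKM and Relt at 2.61 to 11.03 FPKM. All overlapped between M-Shp2-/- and wild type, while the SHP099 libraries of Tnfrsf26, at 1.81 to 2.60 FPKM, lay below wild type, at 2.83 to 6.52 FPKM, with a limma adjusted p of 0.154.

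Of 8 genes that shed TNF, cleave it in the membrane or control that step, all 8 were tested. For SHP099 against wild type limma called 1 higher, Adam10, and 0 lower, beside 6.96% of all genes, with 4 at an unadjusted p under 0.05 (26.7% of all genes). In each of the other comparisons it called 0, with 3 at an unadjusted p under 0.05 in M-Shp2-/- against wild type, 1 in M-Shp2-/- against SHP099 (10.5% and 12.6% of all genes) and 0 by voom. Without M-Shp2-/- replicate 3, Adam10 was called lower in M-Shp2-/- against SHP099, where 19.9% of all genes were called. The median log2 fold change of the list relative to wild type was 0.22 for M-Shp2-/- and 0.26 for SHP099, beside 0.15 and 0.13 over all genes, and 0.08 and 0.13 with median-of-ratios scaling. It was -0.08 between M-Shp2-/- and SHP099. Adam10, a protease related to ADAM17, measured 59.1, 68.6 and 58.0 FPKM in wild type, 69.6, 63.6 and 102 FPKM in M-Shp2-/- and 92.6, 90.6 and 79.5 FPKM with SHP099. With SHP099 its log2 fold change was 0.49 (0.26 to 0.73, limma adjusted p = 0.0366), or 0.37 relative to the median of all genes, higher in 3 of 3 libraries. The call was lost with median-of-ratios scaling, with no filter, without the eBayes trend, in a fit of all 9 libraries, and without wild-type replicate 1 or any SHP099 library, with adjusted p values up to 0.106 over the alternatives and 0.168 over the libraries left out. Sppl2b, a protease that cleaves the membrane stub of TNF, measured 9.37, 10.3 and 6.46 FPKM in wild type and 13.7, 13.9 and 14.1 FPKM with SHP099, with a log2 fold change of 0.64 (0.26 to 1.03, limma adjusted p = 0.0601), and was called higher with quantile normalization, in a fit of all 9 libraries and without wild-type replicate 3. Rhbdf2, which encodes iRhom2, the partner that brings ADAM17 to the surface in macrophages, measured 143, 142 and 161 FPKM in wild type, 123, 121 and 121 FPKM in M-Shp2-/- and 123, 106 and 134 FPKM with SHP099. Unlike Adam17, it was lowest outside wild type without overlap, and it was not called (limma adjusted p = 0.454 for M-Shp2-/- and 0.133 for SHP099). Sppl2a, a relative of Sppl2b, stood at 88.5 to 115 FPKM, Rhbdf1, the gene of iRhom1, at 2.35 to 6.60 FPKM, and Timp3, an inhibitor of ADAM17, at 1.88 to 42.3 FPKM with its highest value in M-Shp2-/- replicate 3.

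Of 30 genes of TNF receptor signaling 29 were tested. For SHP099 against wild type limma called 0 higher and 1 lower, Casp8, beside 6.96% of all genes, with 10 of 29 at an unadjusted p under 0.05 (26.7% of all genes). The other comparisons had 0 called, with 3 at an unadjusted p under 0.05 in M-Shp2-/- against wild type, 5 in M-Shp2-/- against SHP099 (10.5% and 12.6% of all genes) and 0 by voom. Without M-Shp2-/- replicate 3, 9 of 29 were called in M-Shp2-/- against SHP099, 3 higher and 6 lower, beside 19.9% of all genes: Casp8, Cflar, Ikbkb, Map3k5, Otulin, Ripk1, Tab1, Tnfaip3 and Traf1. Without wild-type replicate 3 there were 3 in SHP099 against wild type (Casp8, Ikbkb and Sharpin), beside 11.1% of all genes. At a minimum mean FPKM of 5 that count was also 3, with Casp8, Rbck1 and Sharpin, beside 10.7% of all genes. The median log2 fold change was -0.03 in M-Shp2-/- and 0.04 with SHP099 against wild type (-0.18 and -0.10 with median-of-ratios scaling, which turns the sign of the latter) and -0.07 in M-Shp2-/- against SHP099. Casp8, the protease that starts cell death from TNFR1, measured 31.6, 30.9 and 32.6 FPKM in wild type, 31.5, 30.6 and 21.1 FPKM in M-Shp2-/- and 24.1, 24.6 and 23.3 FPKM with SHP099. With SHP099 all 3 libraries lay below wild type, with a log2 fold change of -0.39 (-0.57 to -0.20, limma adjusted p = 0.0351), or -0.51 relative to the median of all genes. That estimate ran from -0.40 to -0.37 with 1 library left out, while the call was kept only without wild-type replicate 3 and the adjusted p ran from 0.0302 to 0.153. It was also lost with no filter, without the eBayes trend, in a fit of all 9 libraries and with the replicate number as a block. Ripk3, a kinase of necroptosis, measured 19.3, 20.8 and 19.6 FPKM in wild type and 19.2, 11.9 and 11.2 FPKM with SHP099, with a log2 fold change of -0.51 (-0.96 to -0.05, limma adjusted p = 0.153). Cflar, an inhibitor of caspase 8, was the most abundant gene of the list at 496 to 800 FPKM, and Tnfaip3, which restrains NF-kB, stood at 219 to 589 FPKM. Tnip1, a partner of it, stood at 357 to 436 FPKM in wild type, above 281 to 304 FPKM in M-Shp2-/- and 287 to 316 FPKM with SHP099 without overlap, and was not called (limma adjusted p = 0.454 and 0.0731). Traf1, an adaptor of TNFR2, stood at 96.7 to 200 FPKM. Ikbkg, the gene of NEMO, stood at 18.2 to 29.98 FPKM in wild type and 32.4 to 40.1 FPKM in the other groups. These ranges did not overlap, and Ikbkg was not called. Of the Ikbkg exon bases 5.15% overlap G6pdx on the other strand, at a mean of 135 FPKM, and the counting strand is not stated.

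Of 7 genes named as TNF-induced proteins 5 were tested, and limma called 0 in any comparison and voom 0. Over all genes limma called 0.0873% in M-Shp2-/- against wild type, 6.96% in SHP099 against wild type and 0.0699% in M-Shp2-/- against SHP099. In that order 0, 1 and 0 of the 5 had an unadjusted p under 0.05, beside 10.5%, 26.7% and 12.6% of all genes. Tnfaip2 was the most abundant, at a mean of 1292 FPKM in wild type, 1101 FPKM in M-Shp2-/- and 1215 FPKM with SHP099. Tnfaip8l2 stood at 15.9 to 23.0 FPKM and Tnfaip6 at 0.199 to 14.9 FPKM, with its highest value in M-Shp2-/- replicate 3. Tnfaip8 had the smallest adjusted p of the list, with a log2 fold change of -0.29 in SHP099 against wild type (-0.45 to -0.13, limma adjusted p = 0.051). It was called lower with median-of-ratios scaling, quantile normalization, a minimum mean FPKM of 5, all 9 libraries in one fit and without wild-type replicate 3. Over all genes 5.02%, 6.11%, 10.7%, 6.77% and 11.1% were called there, in that order.

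**Figure D5:**
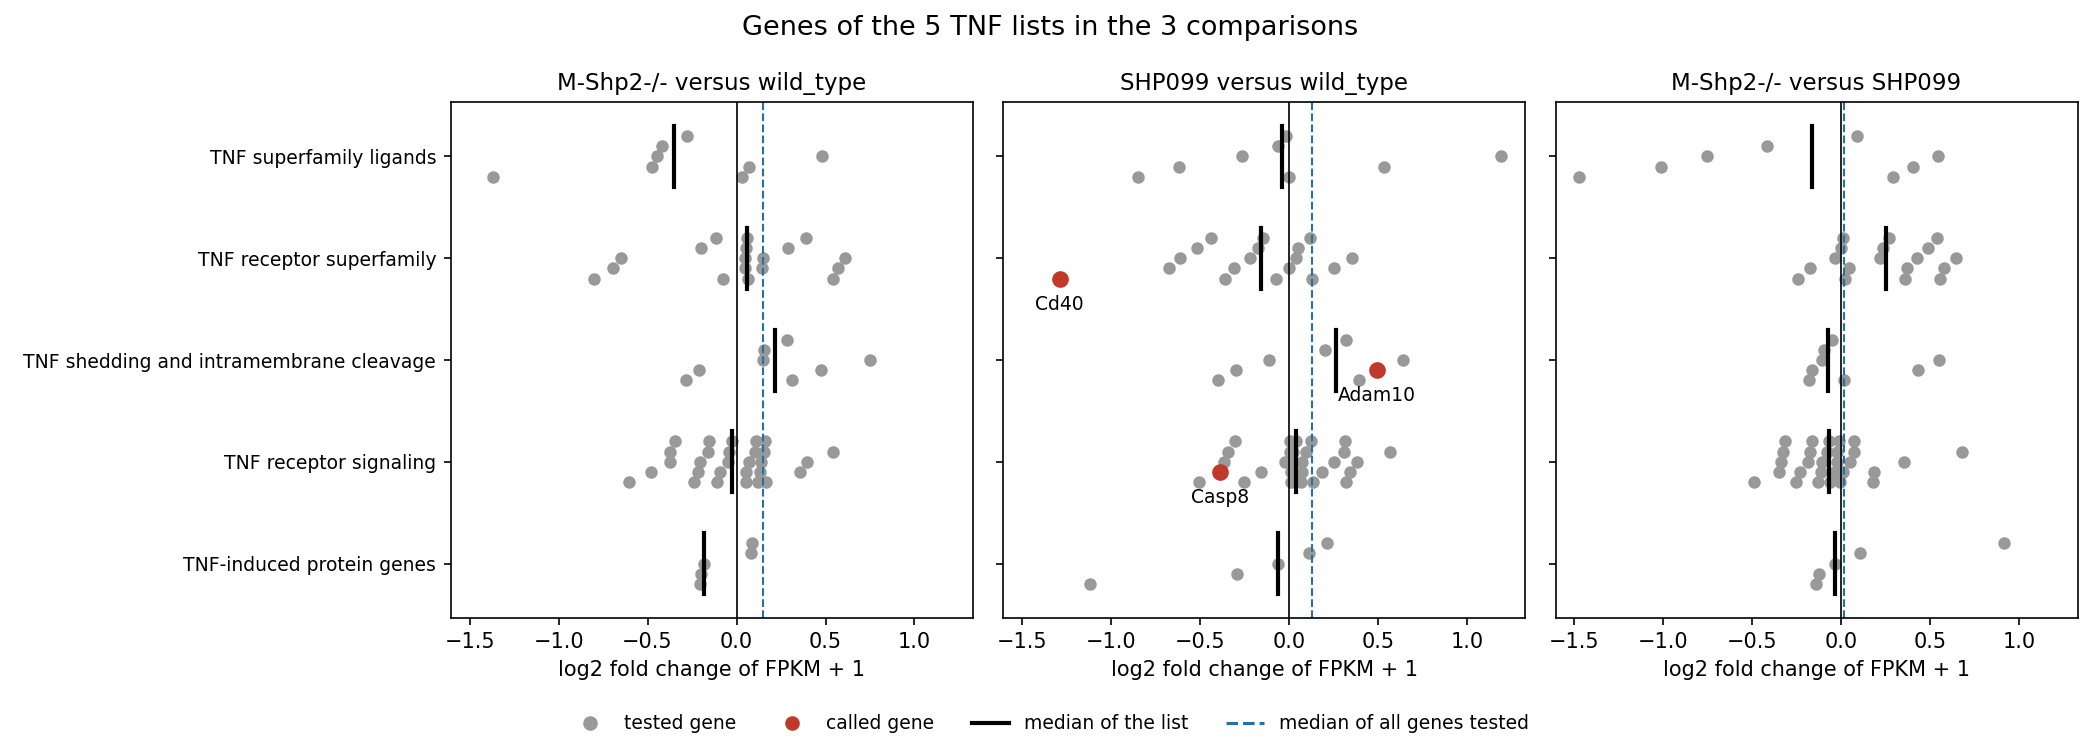
Log2 fold change of FPKM + 1 for every tested gene of 5 fixed lists in the 3 comparisons, with called genes in red, the median of each list as a black line and the median of all genes tested as a dashed line. Cd40, Adam10 and Casp8 in SHP099 against wild type are the genes called, at -1.29, 0.49 and -0.39.

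The number of genes called in the whole table leaned on single libraries. It was 10 in M-Shp2-/- against wild type and 1 to 5 without wild-type replicate 1, 2 or 3 or M-Shp2-/- replicate 1 or 2. It was 797 in SHP099 against wild type, 1273 without wild-type replicate 3, 284 and 399 without wild-type replicates 1 and 2, and 90, 47 and 116 without SHP099 replicates 1, 2 and 3. It was 8 in M-Shp2-/- against SHP099, 2277 without M-Shp2-/- replicate 3 and 0 or 2 without any other library. Of the members, Ltb and Tnfsf9 were called in SHP099 against wild type without wild-type replicate 3, and Tnf, Ltb, Tnfsf9 and Tnfsf12 in M-Shp2-/- against SHP099 without M-Shp2-/- replicate 3.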

How the data were processed

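The authors sequenced poly(A) RNA of 9 libraries and, by their processing notes, used CASAVA 1.8, HISAT2 2.0.4 and HTSeq 0.9.1. The values deposited by the authors are FPKM, and the tool that made them is not named. Of 5232 gene spans in a second table, 91.8% equal GENCODE M21 (GRCm38). FPKM times the mean transcript length was a whole multiple (within 0.05 reads) of 1 step in over 96% of low values, against 10% by chance, which gave depths and reads.

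Genes averaging 1 FPKM or more (11450) were tested as log2(FPKM + 1) with limma 3.58.1 (trend in eBayes, R 4.3.3) on the 6 libraries compared, with Benjamini-Hochberg adjustment over all genes and calls at an adjusted p of at most 0.05. The procedure was tested on simulated data. The alternatives were pseudocounts of 0.1 and 5, other filters and scalings, eBayes without the trend, 1 fit of 9 libraries, a replicate block, the study's cut-offs (0.005 and log2 1), voom on recovered reads and each library left out. Leaving out wild-type and M-Shp2-/- replicate 3 together was chosen after seeing the data.

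Members and lists were chosen with earlier results of these data known. Besides the members and Ptpn11, genes were named by a rule: those called, the 3 of highest mean FPKM and the 2 of largest fold change in each list, and the 3 most like Tnf. Plots used Python 3.11.15 and matplotlib 3.10.9. A list of cell type markers is not reported here.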

Additional observations from a re-analysis of the deposited data

How the results depend on the processing

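No alternative other than a library left out called a member: the counts of members called stayed at 0, and ran from 0 to 2 in SHP099 against wild type and from 0 to 4 in M-Shp2-/- against SHP099 with 1 library left out. Counts over all genes moved more. With M-Shp2-/- set against wild type, 10 genes became 6 without the eBayes trend, 1 with the study's cut-offs and 1 to 8 with 1 library left out. With SHP099 set against wild type, 797 became 74 with no filter on low FPKM, 19 with the study's cut-offs and 47 to 1273 with 1 library left out. Between M-Shp2-/- and SHP099, 8 became 3 with no filter, 17 at a minimum mean FPKM of 5, 3 in a fit of all 9 libraries, 0 with the study's cut-offs, 14 by voom and 0 to 2277 with 1 library left out. Of the calls in SHP099 against wild type 521 of 797 were higher, against 200 of 575 with median-of-ratios scaling and 344 of 700 with quantile normalization. Between M-Shp2-/- and SHP099 they were 3 of 8, 5 of 7 and 3 of 6. In SHP099 against wild type 133 of 284 calls were higher without wild-type replicate 1. Without SHP099 replicates 1, 2 and 3, each left out alone, the higher calls there were 21 of 90, 10 of 47 and 42 of 116.

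Some log2 fold changes of members, and that of Tnfsf15, turned sign. Between M-Shp2-/- and wild type, Ltb ran from -0.46 to 0.0712 and Tnfsf9 from -1.01 to 0.0732 with 1 library left out, Tnfrsf1a was -0.00716 with median-of-ratios scaling and Tnfrsf1b 0.13 with quantile normalization. With SHP099 set against wild type, Tnf ran from -0.37 to 0.33, Tnfsf12 from -0.21 to 0.12 and Tnfsf15 from -1.08 to 0.10 with 1 library left out, Tnfrsf1a was -0.0159 with median-of-ratios scaling and Tnfrsf1b 0.0479 with quantile normalization. Between M-Shp2-/- and SHP099, Tnfrsf1a ran from -0.00422 to 0.0525 and Tnfrsf1b from -0.0414 to 0.0303 with 1 library left out, and Tnfrsf1b was 0.000621 at an equal sum of FPKM and 0.0826 with quantile normalization. The cause was not tested.

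The replicate number as a block left 2 genes called in M-Shp2-/- against wild type, 591 in SHP099 against wild type and 0 in M-Shp2-/- against SHP099. With this block Casp8 was no longer called with SHP099, and the limma adjusted p of Ptpn11 was 0.157 against wild type and 0.146 against SHP099, which is not a weaker effect. The deviations of libraries with the same number correlated at 0.49, -0.43 and 0.19 between wild type and M-Shp2-/-. They correlated at -0.04, -0.09 and 0.45 between wild type and SHP099 and at -0.01, 0.18 and -0.05 between M-Shp2-/- and SHP099. Libraries with different numbers correlated at -0.63 to 0.54. With 3 libraries per group these values do not decide whether the numbers pair the samples.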
